A study of Mus musculus with 24 samples.

Results

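Oxidative phosphorylation is built from genes of 2 genomes, and its mRNAs were followed here in mouse ileal fragments exposed to bile acids. Members were chosen by symbol and count alone: symbols beginning mt-Nd, mt-Co, mt-Cyt or mt-Atp for the mitochondrial set, and Ndufa, Ndufb, Ndufc, Ndufs, Ndufv, Sdh, Uqcr, Cox4 to Cox8 or Atp5 for the nuclear set. Pseudogene symbols were left out, and a member needed at least 10 counts in 3 or more libraries. The rule kept 105 of the 57126 gene identifiers of the table, 11 of them mitochondrial and 94 nuclear. The nuclear set held 37 subunits of complex I, 4 of complex II, 8 of complex III, 16 of complex IV, 17 of complex V and 12 assembly factors. The mitochondrial set held 6 subunits of complex I, 1 of complex III, 3 of complex IV and 1 of complex V. Below the count rule were mt-Nd4l and mt-Atp8 and 8 nuclear identifiers, among them the isoform genes Cox4i2, Cox6a2, Cox7b2, Cox8c and Ndufa4l2. All 105 members also passed the filter of the test.

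In oxidative phosphorylation, complexes I to IV pass electrons to oxygen and pump protons across the inner mitochondrial membrane, and complex V, the ATP synthase, lets the protons back to make ATP. Mitochondrial DNA encodes core subunits of complexes I, III, IV and V, whereas complex II and the other subunits come from nuclear genes and are imported. Mitochondrial mRNAs are cut from long transcripts of both strands and receive short poly(A) tails. Enterocytes, which absorb nutrients and bile acids, are rich in mitochondria.

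The fragments came from the ileum of male wild-type C57BL/6J mice starved for 4 h, and were cultured for 8 h with an additive. The additives were tCDCA, the taurine conjugate of chenodeoxycholic acid; extracts CME(-) from WT or Asbt-/- donor mice; extracts CME(+) from WT or Asbt-/- donors; and DMSO, the solvent. Asbt-/- and WT name the mouse that gave the extract, and the treated tissue was wild-type in every library; Asbt is the ileal carrier that takes up bile acids. The labels leave CME unexplained; here CME(+) is read as the extract depleted of bile acids. For replicates 2 to 4 of tCDCA and of CME(-), the labels give 200 µM. The groups had 4 tCDCA, 4 WT CME(-), 3 Asbt-/- CME(-), 3 WT CME(+), 4 Asbt-/- CME(+) and 3 DMSO libraries after the submitters had removed 3 libraries, 1 for another DMSO concentration (0.5% against 0.6%) and 2 for poor mapping. The labels do not say whether libraries of a group are from different animals; p-values then cover only the spread between libraries, which may be technical.

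Libraries were made from 100 ng of RNA with a QuantSeq kit, which primes on poly(A) and reads near it, and the 21 libraries used held 2.76 to 5.60 M counts. Replicate 1 of each group has another column-name prefix than replicates 2 to 4. The 2 prefixes are read here as a first and a second run, which rests on the column names alone. DMSO had no used first-run library. Mitochondrial rRNA took 5.29 to 34.6% of counts in second-run libraries and 6.78 to 8.29% in first-run libraries, and tCDCA replicate 3 (5.29%) and DMSO replicate 4 (19.5%) had the lowest shares of their group in the second run. All 15 enterocyte markers searched for were detected in every group. Fragments are mixtures of cell types, so fewer cells of a type and less RNA per cell cannot be told apart in any value below.

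The mitochondrial genes are shown first by the longest run of A inside each gene, because the libraries were primed on A and the level of these mRNAs differed widely between genes. The windows have 30 bases, read on the gene's own strand from the mitochondrial chromosome of GRCm38 with GENCODE M21 gene positions, and capitals mark the run (the first one where several tie).
mt-Nd2 (chrM:4041-4070, + strand): tactaatcaacAAAAAAAAcccacgatcaa
mt-Nd4 (chrM:10216-10245, + strand): tatcaagccctAAAAAAAcctgaacaaacg
mt-Nd5 (chrM:12625-12654, + strand): aaaacgacatcAAAAAAAtcattgccttct
mt-Co1 (chrM:6105-6134, + strand): tactactccggAAAAAAAgaacctttcggc
mt-Nd1 (chrM:3608-3637, + strand): acatcttctatgAAAAAActttctacccct
mt-Cytb (chrM:14147-14176, + strand): gacaaacatacgAAAAAcacacccattatt
mt-Atp6 (chrM:8277-8306, + strand): ccgacacaaactAAAAAgctcacttgccca
mt-Co3 (chrM:8821-8850, + strand): ctcctattgtacAAAAAggactacgatatg
mt-Nd3 (chrM:9541-9570, + strand): atctgtactcagAAAAAgcaaatccatatg
mt-Co2 (chrM:7143-7172, + strand): taatattaacaacAAAActaacacatacaa
mt-Nd6 (chrM:13992-14021, - strand): ttgggttagcattAAAgccttcacctattt
The 5 genes with a run of 6 or more A (mt-Nd1, mt-Nd2, mt-Co1, mt-Nd4 and mt-Nd5) had 2460 to 19700 CPM per kb of gene in the second run, CPM being a gene's share of the scaled library total. Of the 6 genes with shorter runs, mt-Cytb had 10700 CPM per kb and the other 5 had 80.2 to 778 CPM per kb. In the first run the same 5 genes with long runs had 1320 to 24500 CPM per kb, and the genes with shorter runs other than mt-Cytb had 16.4 to 283 CPM per kb. Across the 11 genes, the run length and the level per kb had a Spearman rho of 0.73 in the second run and 0.69 in the first, a description over genes of 1 chromosome measured in the same libraries. Because the kit reads near poly(A), counts need not follow gene length, and the division by length is a choice of this description. Of the long runs, that of mt-Nd1 ended 82 bases before the gene's 3' end. Those of mt-Co1, mt-Nd2, mt-Nd5 and mt-Nd4 ended 750, 892, 923 and 1311 bases before it, and this distance was not part of the description. Where the reads of each gene begin was not analysed here, and the part of these runs in the levels was not tested. mt-Nd6, the one member on the minus strand, overlaps the end of mt-Nd5, and the strand setting of the counting is not given in the sources used here, so reads of the overlap cannot be assigned.

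The summed level of the mitochondrial set was lowest with the CME(+) extracts in the second run, and that of the nuclear set overlapped DMSO in every group. The mitochondrial set summed to 57354 to 95554 CPM with tCDCA, 69100 to 92512 CPM with WT CME(-), 62101 and 64312 CPM with Asbt-/- CME(-), 47506 and 58514 CPM with WT CME(+), 50455 to 58497 CPM with Asbt-/- CME(+), and 62261 to 94289 CPM in DMSO. All 5 second-run CME(+) libraries used were therefore below every used DMSO library. The removed WT CME(+) replicate 2, at 64175 CPM, was above DMSO replicate 4, at 62261 CPM. The tCDCA libraries spanned the DMSO range downwards to 57354 CPM in replicate 3, which lay inside the Asbt-/- CME(+) range. The nuclear set summed to 12144 to 19027 CPM with tCDCA, 13870 to 15272 CPM with WT CME(-), 16168 and 16452 CPM with Asbt-/- CME(-), 15598 and 15740 CPM with WT CME(+), 14748 to 15414 CPM with Asbt-/- CME(+), and 13000 to 17417 CPM in DMSO. Between the forms the nuclear sums of these used libraries were separate, 3 against 2 per donor. They were higher with CME(-) for Asbt-/- extracts and lower with CME(-) for WT extracts. The removed WT CME(+) replicate 2, at 14766 CPM, lay inside the WT CME(-) range. With mitochondrial genes left out of the library totals, WT CME(-) replicate 2 (21070) was above WT CME(+) replicate 3 (20147), so the WT forms overlapped. The Asbt-/- forms stayed separate on that scale (21552 and 22271 against 20161 to 21211). In the first run, the mitochondrial set had 60977 CPM in the Asbt-/- CME(+) library, the lowest of its 6 libraries, against 79682 CPM in the removed DMSO library.

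**Figure D1:**
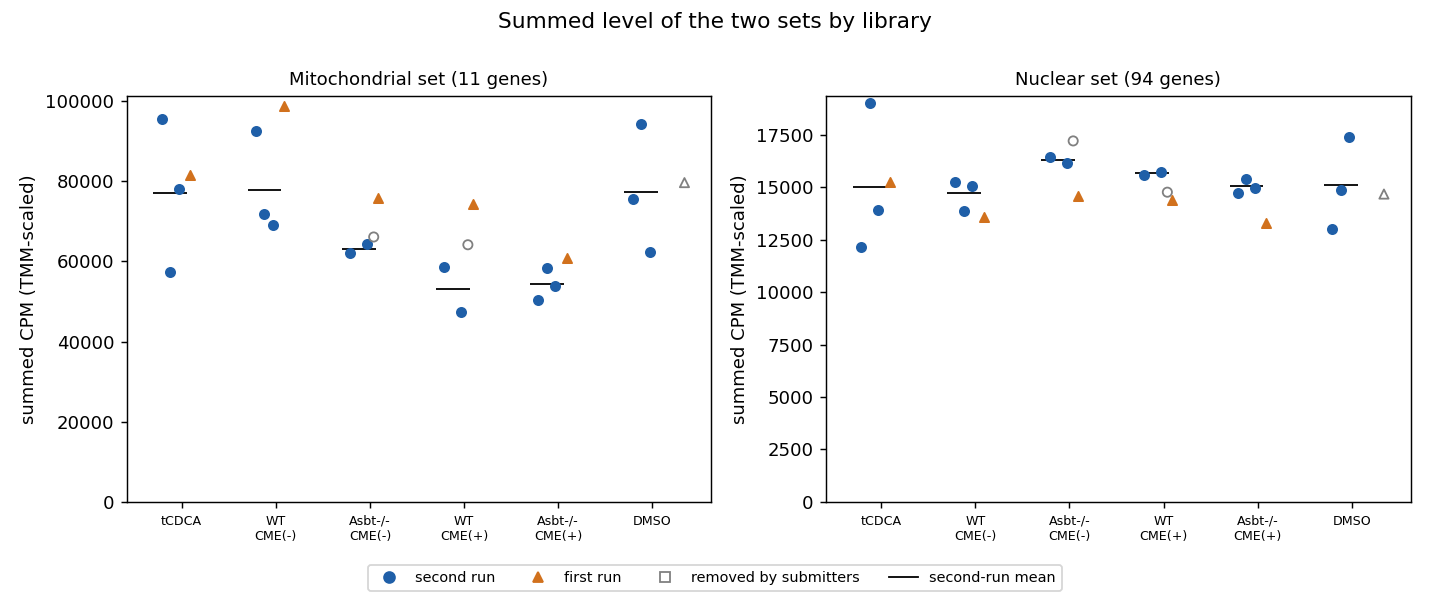
Summed TMM-scaled CPM of the 11 mitochondrial genes (left) and the 94 nuclear genes (right) in each library, by group; circles are second-run and triangles first-run libraries, hollow grey symbols are libraries removed by the submitters, and lines are means of the used second-run libraries. The used second-run CME(+) libraries, at 47506 to 58514 CPM, lie below the DMSO libraries for the mitochondrial set, and the nuclear sums of each group overlap those of DMSO.

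Tissue kept with Asbt-/- CME(+) had lower levels of 5 mitochondrial mRNAs than tissue kept with DMSO, each 1.89- to 1.95-fold lower. They encode subunits of all 4 complexes with mitochondrial parts: mt-Nd1 and mt-Nd4 (complex I), mt-Cytb (complex III), mt-Co2 (complex IV) and mt-Atp6 (complex V). edgeR's quasi-likelihood test with Benjamini-Hochberg adjustment over 13125 genes called 5 of 11 mitochondrial members lower and none higher; of all genes, 0.922% were called lower and 2.31% in either direction. The median log2 change was -0.93 over the 11 members and -0.01 over all genes.

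mt-Co2, which carries the copper centre that takes electrons from cytochrome c, had 69.0, 76.6, 82.9 and 81.2 CPM in Asbt-/- CME(+) replicates 1 to 4, against 136, 198 and 166 CPM in DMSO replicates 2 to 4. The groups did not overlap, and the change was -0.96 ± 0.165 (log2, SE; n = 4 and 3; adjusted p = 0.000669, edgeR). mt-Cytb, the cytochrome b of complex III, had 12940, 7730, 7750 and 7696 CPM in Asbt-/- CME(+) libraries, against 12580, 19850 and 14530 CPM in DMSO libraries. Only the first-run Asbt-/- CME(+) library reached the DMSO range, and in the 5 groups with used libraries in both runs the first-run library was the highest; the removed first-run DMSO library, at 16130 CPM, lay inside the DMSO range. The change was -0.96 ± 0.183 (adjusted p = 0.00202, edgeR). mt-Atp6, a part of the proton channel of the ATP synthase, had 119, 87.8, 81.8 and 95.1 CPM in Asbt-/- CME(+) libraries, against 171, 205 and 157 CPM in DMSO libraries. All 4 libraries lay below the DMSO range, with a change of -0.93 ± 0.180 (adjusted p = 0.00227, edgeR).

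The 2 called complex I genes encode membrane subunits. mt-Nd1 had 7086, 5168, 4975 and 4849 CPM in Asbt-/- CME(+) libraries, against 7625, 12870 and 9439 CPM in DMSO libraries, again without overlap (-0.95 ± 0.187, adjusted p = 0.0028, edgeR). mt-Nd4 had 25480 CPM in the first-run Asbt-/- CME(+) library and 8836, 9146 and 7990 CPM in the second-run ones, against 13520, 23600 and 14270 CPM in DMSO libraries (-0.92 ± 0.194, adjusted p = 0.00467, edgeR). For mt-Nd4 the runs differed more than the groups, so the comparison rests on the second-run libraries and on the run term. In the first run, the Asbt-/- CME(+) library was the lowest of 6 libraries for 8 of the 11 members. Against the removed first-run DMSO library it had 69.0 against 76.7 CPM for mt-Co2, 12940 against 16130 CPM for mt-Cytb and 7086 against 9271 CPM for mt-Nd1. The count of 8 comes from a single Asbt-/- CME(+) library, whose members share a total and scaling factor. The share of all genes lowest in that library was not counted.

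edgeR did not call the other 6 mitochondrial members. DESeq2 called 6 members lower, the same 5 and mt-Nd3 (adjusted p = 0.0075). The share of all genes that DESeq2 called is not given here or below. mt-Nd3 had 78.2, 200, 154 and 160 CPM with Asbt-/- CME(+), against 191, 409 and 441 CPM in DMSO, a change of -0.97 with a 95% interval of -1.59 to -0.35 and an adjusted p of 0.0984 (edgeR). mt-Co3 was at -1.23 (-2.60 to 0.15), mt-Co1 at -0.50 (-1.09 to 0.09) and mt-Nd5 at -0.37 (-1.33 to 0.59). mt-Nd6 and mt-Nd2 stood near 0, at 0.08 (-0.50 to 0.67) and 0.04 (-0.52 to 0.60). For mt-Nd2 the levels were 10960, 19240, 26460 and 22860 CPM with Asbt-/- CME(+), against 25820, 20610 and 15080 CPM in DMSO, so the groups overlapped fully.

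Mitochondrial rRNA and other markers also differed between these groups. In the second run, rRNA held 17.6 to 19.0% of counts with Asbt-/- CME(+), against 19.5 to 34.6% in DMSO. The second-run Asbt-/- CME(+) libraries had 4849 to 5168 CPM of mt-Nd1, 5484 to 6716 CPM of mt-Co1 and 3436 to 3737 CPM of mt-Nd5, against 9439, 5960 and 2110 CPM in DMSO replicate 4, the DMSO library with 19.5% rRNA. Of these genes mt-Nd1 was higher in DMSO replicate 4, mt-Co1 lay among the Asbt-/- CME(+) values and mt-Nd5 was lower. The summed level of the 15 enterocyte markers was 3840 to 6150 CPM with Asbt-/- CME(+), against 7850 to 12900 CPM in DMSO. Their median change was -0.75, and 0 of 15 were called (edgeR). At an unadjusted p under 0.05, 13 of 15 were lower, as were 979 of the 13125 genes tested. Of 7 smooth muscle markers 1 was lower (median -0.58), and their sums were 881 to 1040 CPM with Asbt-/- CME(+), against 1020 to 1750 CPM in DMSO. Of 6 fibroblast markers 1 was lower (median -0.46) and of 8 enteroendocrine markers 1 was higher (median 0.15). The part of these differences in the mitochondrial result was not tested. Without DMSO replicate 3, 2 of the 5 calls were left (mt-Co2 and mt-Atp6), and mt-Cytb, mt-Nd1 and mt-Nd4 had changes of -0.75, -0.72 and -0.62 (adjusted p = 0.0554, 0.0867 and 0.171, edgeR). No member was called without scaling factors, where the 5 genes had changes of -0.72 to -0.66 (adjusted p = 0.0532 to 0.175, edgeR). Without the run term none was called either, with changes of -1.10 for mt-Co2, -0.89 for mt-Atp6, -0.85 for mt-Nd1, -0.79 for mt-Cytb and -0.41 for mt-Nd4 (adjusted p = 0.0856 to 0.854, edgeR).

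**Figure D2:**
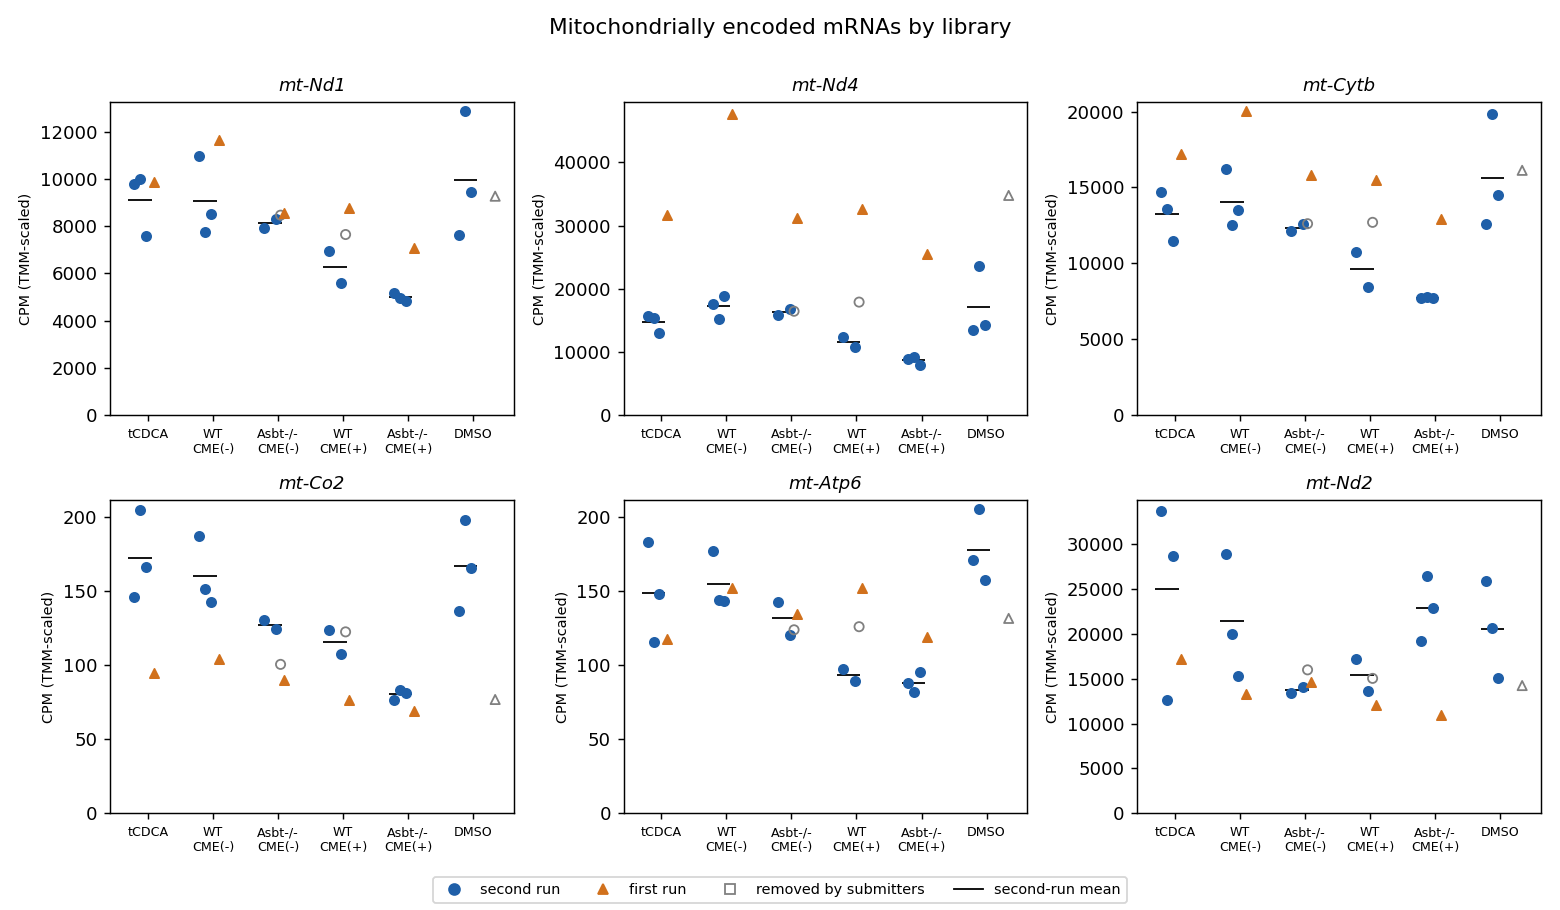
TMM-scaled CPM of 6 mitochondrial mRNAs in each library, by group; circles are second-run and triangles first-run libraries, hollow grey symbols are libraries removed by the submitters, and lines are means of the used second-run libraries. The second-run Asbt-/- CME(+) libraries lie below the DMSO libraries for mt-Nd1, mt-Nd4, mt-Cytb, mt-Co2 and mt-Atp6 and among them for mt-Nd2.

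Among the nuclear members, 1 of 94 was called with Asbt-/- CME(+) against DMSO, and the median change was -0.06. Of all genes, 0.922% were called lower and 2.31% in either direction, so this count is not above the background. The called gene was Sdhaf4, an assembly factor that helps the flavoprotein subunit of complex II to mature. Sdhaf4 had 10.7, 11.8, 9.09 and 9.06 CPM with Asbt-/- CME(+), against 23.9, 24.8 and 16.3 CPM in DMSO, without overlap (-1.11 ± 0.295, adjusted p = 0.0325, edgeR). Every other used library was at or below 16.3 CPM, and the removed first-run DMSO library had 14.7 CPM. The change against the same DMSO libraries was -0.75 with tCDCA, -0.78 with WT CME(-), -0.90 with Asbt-/- CME(-) and -1.01 with WT CME(+), none of them called. The Sdhaf4 call was lost without DMSO replicate 2 or 3, without Asbt-/- CME(+) replicate 2, 3 or 4 and with all 24 libraries in the fit, with adjusted p between 0.0607 and 0.214 (edgeR).

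edgeR called no subunit gene of the nuclear set in this comparison, and DESeq2 called 1, Cox7a1. Cox7a1, the complex IV isoform of heart and skeletal muscle, had 35.1 CPM in the first-run library and 30.2 to 45.2 CPM in the second-run libraries with Asbt-/- CME(+), against 37.6 to 144 CPM in DMSO (-1.23 ± 0.336, adjusted p = 0.0637 by edgeR and 0.00275 by DESeq2). The groups overlapped, the DMSO libraries were far apart, and without DMSO replicate 2 the change was -1.60 (adjusted p = 0.000124). By complex, median log2 changes were -0.11 for complex I, 0.13 for complex II, -0.08 for complex III, -0.23 for complex IV and 0 for complex V. For 75 of the 94 nuclear members the 95% interval of the change lay within 2-fold in either direction, and the median SE was 0.18.

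**Figure D3:**
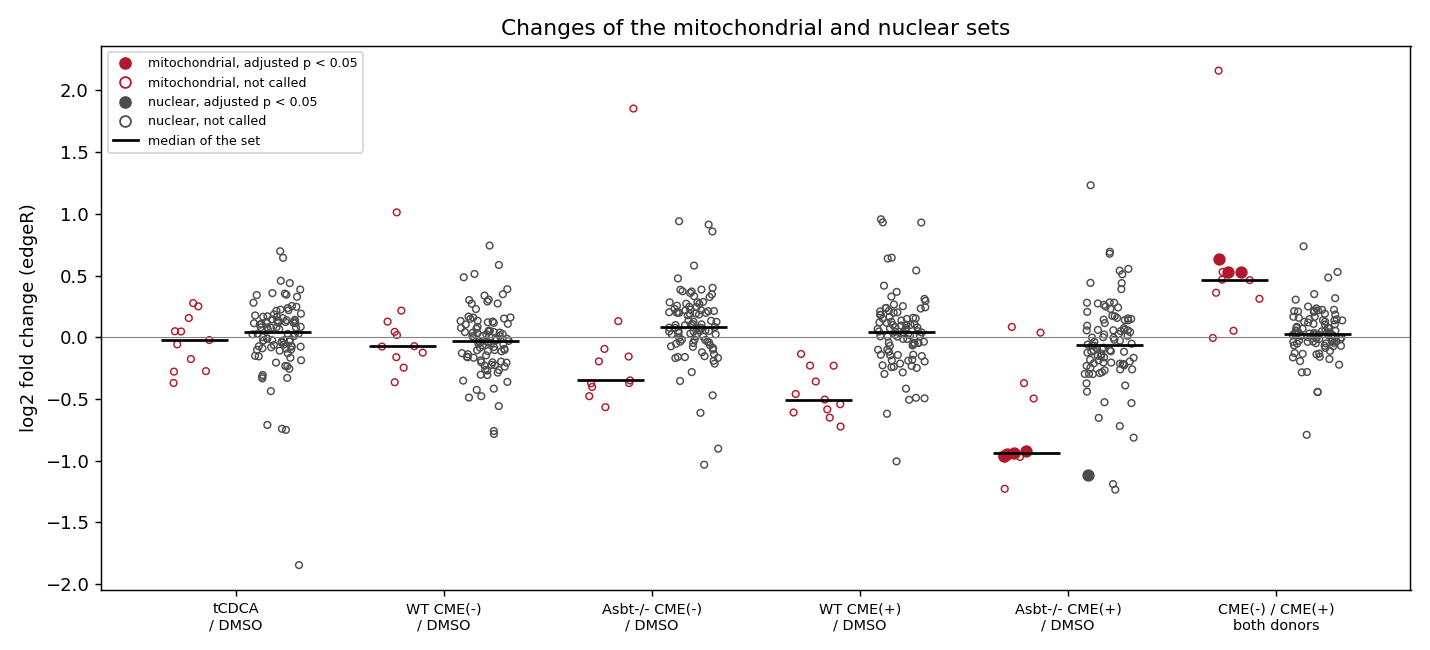
Log2 fold changes (edgeR) of the 11 mitochondrial (red) and 94 nuclear (grey) members in the 5 comparisons with DMSO, which share the DMSO libraries, and in CME(-) against CME(+); filled points passed an adjusted p of 0.05 and black lines are set medians. The mitochondrial median was -0.93 with Asbt-/- CME(+) and 0.47 for CME(-) against CME(+), and the nuclear medians stayed between -0.06 and 0.08.

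With WT CME(+), all 11 mitochondrial members were on the lower side against DMSO, with a median of -0.50, and none was called by edgeR (5 at an unadjusted p under 0.05; of all genes, 0.175% were called and 10% were under 0.05 unadjusted). mt-Atp6 had 152 CPM in the first-run library and 97.1 and 89.4 CPM in the second-run libraries with WT CME(+), against 171, 205 and 157 CPM in DMSO (-0.72 ± 0.197, adjusted p = 0.143, edgeR). DESeq2 called 3 mitochondrial members lower here (mt-Atp6, mt-Cytb and mt-Nd1), with adjusted p of 0.0145 to 0.0494, a count without the DESeq2 share of all genes beside it. Of the nuclear members edgeR called 0 of 94 (7 at an unadjusted p under 0.05) and DESeq2 called 1, Atp5g1, 1 of 3 genes for the same c subunit of the ATP synthase ring. Atp5g1 had 171 CPM in the first-run library and 221 and 229 CPM in the second-run libraries with WT CME(+), against 144 to 149 CPM in DMSO (0.64 ± 0.178, adjusted p = 0.163 by edgeR and 0.0353 by DESeq2). The groups did not overlap, and the removed first-run DMSO library had 153 CPM. Sdhd, the membrane anchor of complex II, had 63.2 CPM in the first-run library and 49.8 and 38.7 CPM in the second-run libraries, against 20.8, 19.2 and 24.1 CPM in DMSO (0.93 ± 0.268, adjusted p = 0.168 by edgeR and 0.0615 by DESeq2). The first-run library had the highest Sdhd level of each of the 6 groups, including 54.4 CPM in the removed DMSO library. Of the marker lists no gene was called in this comparison (edgeR); 4 of 7 smooth muscle markers were lower at an unadjusted p under 0.05, with a median of -0.52.

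With the CME(-) extracts and with tCDCA, no member of either set was called against DMSO by edgeR or DESeq2. The share of all genes called was 5.68% with tCDCA, 0.297% with WT CME(-) and 0.952% with Asbt-/- CME(-). At an unadjusted p under 0.05 there were 1 mitochondrial and 6 nuclear members with tCDCA, 0 and 4 with WT CME(-), and 4 and 5 with Asbt-/- CME(-). Of all genes, 17.7%, 9.38% and 12.4% passed this unadjusted limit with tCDCA, WT CME(-) and Asbt-/- CME(-). Mitochondrial medians were -0.02, -0.07 and -0.35 for tCDCA, WT CME(-) and Asbt-/- CME(-), and nuclear medians were 0.04, -0.03 and 0.08.

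tCDCA was the additive with the largest share of genes called against DMSO, and log2 changes of the members ran from -0.37 to 0.28 in the mitochondrial set and from -1.85 to 0.70 in the nuclear set. mt-Nd1 had 9875, 9786, 10010 and 7587 CPM with tCDCA, against 7625, 12870 and 9439 CPM in DMSO, with a change of -0.18 and a 95% interval of -0.55 to 0.20. mt-Co2 had 94.8, 146, 204 and 166 CPM with tCDCA, against 136, 198 and 166 CPM in DMSO (-0.02, interval -0.35 to 0.31). For 80 of the 94 nuclear members the interval lay within 2-fold. The lowest, Cox6b2, had 0.446 CPM in the first-run library and 0.340 to 2.61 CPM in the second-run libraries with tCDCA, against 2.75 to 7.70 CPM in DMSO (-1.85, interval -3.33 to -0.36, adjusted p = 0.148, edgeR). In the same comparison 11 of the 15 enterocyte markers were lower (median -1.56), 3 of 7 Paneth markers were higher (median 0.69), 3 of 8 enteroendocrine markers were higher (median 0.25), 2 of 7 goblet markers were lower and 1 of 6 myeloid markers was higher. Their part in the values of the members was not tested. Without tCDCA replicate 2, 3 nuclear members were called higher: Sdhd (0.90), Atp5g1 (0.52) and Atp5e (0.54). Without DMSO replicate 2, 1 was called lower, Cox7a1 (-1.08).

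The direct comparison of tCDCA with Asbt-/- CME(+), which does not use DMSO, called 4 mitochondrial members higher and 0 nuclear members (9 at an unadjusted p under 0.05, as did 12.4% of all genes), where 0.869% of all genes were called higher and 1.93% in either direction. The 4 were mt-Co2 (0.94 ± 0.152, adjusted p = 0.000371, edgeR), mt-Nd1 (0.77, adjusted p = 0.00891), mt-Cytb (0.69, adjusted p = 0.0199) and mt-Nd4 (0.65, adjusted p = 0.0428). All 11 mitochondrial members were on the higher side with tCDCA. The Asbt-/- CME(+) libraries are the same as in the comparison with DMSO, so these comparisons are not independent. None of the alternatives (DESeq2, other scaling, other run handling or leaving out libraries) was run for this comparison. Beside this, 4 of 15 enterocyte markers were lower with tCDCA (median -0.62), 2 of 7 Paneth markers were higher (median 0.70) and 2 of 7 smooth muscle markers were higher (median 0.54). Goblet markers had 1 higher and 1 lower, 1 stem and crypt marker was lower and 1 myeloid marker was higher. The part of these markers in the mitochondrial values was not tested.

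The extract form was then compared within the extracts. The Asbt-/- CME(+) libraries are again among them, so this comparison is not independent of those above. CME(-), averaged over both donors, had higher mitochondrial mRNAs than CME(+): 3 of 11 members were called higher, 0 lower, with a median of 0.47, while 0.152% of all genes were called higher and 0.434% in either direction. The 3 were mt-Nd4 (0.64 ± 0.136, adjusted p = 0.0240, edgeR), mt-Co2 (0.53 ± 0.116, adjusted p = 0.0260) and mt-Cytb (0.53 ± 0.128, adjusted p = 0.0461). mt-Nd1 (0.53, adjusted p = 0.0526) and mt-Co3 (2.16, adjusted p = 0.0544) were just outside. No nuclear member was called by edgeR or DESeq2 (5 at an unadjusted p under 0.05, which 9.79% of all genes passed), and the nuclear median was 0.03, with intervals within 2-fold for 87 of 94.

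mt-Nd4 had 47630 CPM in the first-run library and 17530, 15220 and 18910 CPM in the second-run libraries with WT CME(-), against 32650 CPM (first run) and 12360 and 10820 CPM with WT CME(+). It had 31160 CPM (first run), 15780 and 16710 CPM with Asbt-/- CME(-), against 25480 CPM (first run), 8836, 9146 and 7990 CPM with Asbt-/- CME(+). Within each run and donor, every used CME(-) library was above every used CME(+) library. Of the removed libraries, WT CME(+) replicate 2 had 17880 CPM of mt-Nd4, above WT CME(-) replicates 2 and 3, and Asbt-/- CME(-) replicate 3 had 16430 CPM. Used libraries were separate in the same way for mt-Co2 in the second run, with 187, 151 and 143 CPM for WT CME(-) against 123 and 107 CPM for WT CME(+), and 130 and 124 CPM for Asbt-/- CME(-) against 76.6, 82.9 and 81.2 CPM for Asbt-/- CME(+). The removed libraries stood at 100 CPM of mt-Co2 for Asbt-/- CME(-) replicate 3 and 122 CPM for WT CME(+) replicate 2. Second-run ranges of the 2 forms, over used libraries, were separate for 9 of 11 members with WT extracts and 10 of 11 with Asbt-/- extracts. Of the 10, 1, mt-Nd2, was lower with CME(-). The share of all genes with separate ranges was not counted, so these counts have no background beside them. They rest on 3 against 2 libraries, and members of 1 library are not independent.

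Taken donor by donor, edgeR called no member. With WT extracts the mitochondrial median was 0.48 (5 of 11 at an unadjusted p under 0.05, none called by DESeq2); 0% of all genes were called and 6.33% passed unadjusted. With Asbt-/- extracts it was 0.46 (6 of 11 at an unadjusted p under 0.05); 0.0229% of all genes were called and 7.11% passed unadjusted. Here DESeq2 called 4 members higher, mt-Nd4, mt-Co2, mt-Cytb and mt-Co3, again without its share of all genes. The nuclear medians were -0.10 with WT and 0.14 with Asbt-/- extracts (3 and 7 of 94 at an unadjusted p under 0.05, none called by DESeq2). The difference between the donors in the form contrast was itself tested and called 0 members of either set (edgeR; 0 mitochondrial and 7 nuclear at an unadjusted p under 0.05), where 0% of all genes were called and 3.74% passed unadjusted.

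Several single libraries changed the number of calls between the forms, while the changes kept about their size. Where the call of mt-Nd4 was lost on leaving out 1 extract library, its change was 0.59 to 0.65 (adjusted p = 0.0553 to 0.0889, edgeR), and for mt-Co2 it was 0.48 to 0.56 (adjusted p = 0.0521 to 0.0886). For mt-Cytb it was 0.47 to 0.58 (adjusted p = 0.0556 to 0.178). Leaving out Asbt-/- CME(-) replicate 2 or 4, WT CME(+) replicate 3 or 4, or Asbt-/- CME(+) replicate 3 or 4 left 0 mitochondrial calls. Leaving out WT CME(-) replicate 1 or 2 or Asbt-/- CME(+) replicate 2 left 1, and leaving out tCDCA replicate 3, which only shares the estimate of spread, gave 6. With extract genotype and replicate number as a block, 5 mitochondrial members were called for the mean of both donors and 1, mt-Nd4, for Asbt-/- extracts alone. The labels give this pairing for replicates 2 to 4, and for replicate 1 it was assumed from the number. Smooth muscle markers moved with the form: 2 of 7 were higher with CME(-), with a median of 0.65, while 0 of 15 enterocyte markers were called and their median was -0.23. Of 7 Paneth markers 0 were called, 5 were higher and 1 lower at an unadjusted p under 0.05, and their median was 0.40, and 0.75 with Asbt-/- extracts. The part of this in the mitochondrial values was not tested.

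**Figure D4:**
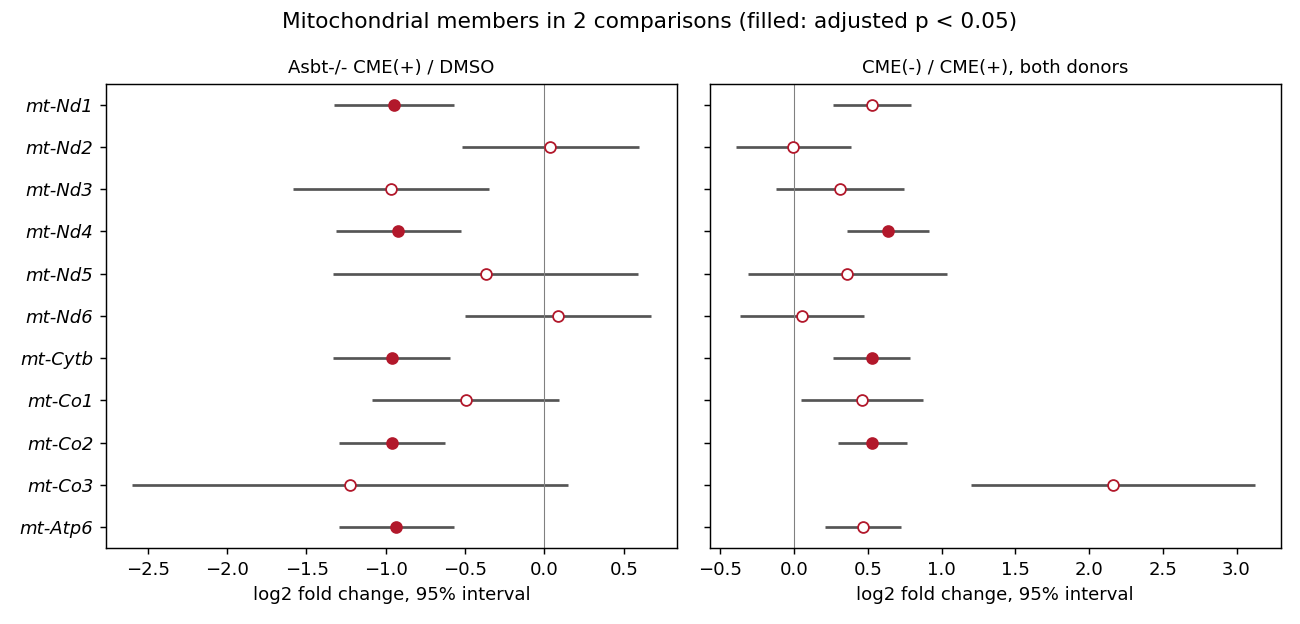
Log2 fold change and 95% interval of the 11 mitochondrial members for Asbt-/- CME(+) against DMSO (left) and CME(-) against CME(+) averaged over both donors (right); filled points passed an adjusted p of 0.05. mt-Co2, mt-Cytb and mt-Nd4 passed in both, mt-Nd1 and mt-Atp6 in the left comparison alone, and mt-Nd2 and mt-Nd6 lie near 0 in both. Both comparisons use the same Asbt-/- CME(+) libraries and are not independent.

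mt-Co3, a core subunit of complex IV, varied most between the extract groups. It had 14.5, 224 and 228 CPM in Asbt-/- CME(-) replicates 1, 2 and 4, against 10.7, 17.7, 10.4 and 16.3 CPM in Asbt-/- CME(+) replicates 1 to 4. Both high libraries rested on 583 and 582 counts, and the removed Asbt-/- CME(-) replicate 3 had 32 counts (18.3 CPM). WT CME(-) libraries had 15.9, 68.7, 155 and 91.6 CPM, against 9.55, 62.6 and 19.2 CPM with WT CME(+) and 40.4, 54.2 and 50.9 CPM in DMSO. The change for the form with Asbt-/- extracts was 3.08 with an interval of 1.73 to 4.43 (adjusted p = 0.119, edgeR).

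The genotype of the extract donor made no called difference. Asbt-/- against WT extracts, averaged over both forms, called 0 mitochondrial and 0 nuclear members by edgeR and by DESeq2, with 4 and 1 at an unadjusted p under 0.05; of all genes, 0% were called and 5.23% passed unadjusted. The lowest p was that of mt-Co2, at -0.36 with an interval of -0.59 to -0.12 (adjusted p = 0.943, edgeR). The nuclear member with the lowest p, Ndufv1, the complex I subunit that binds NADH, was at 0.43 (interval 0.09 to 0.76). It reached 94 CPM in WT CME(-) replicate 2, against 50 to 54.3 CPM in the other WT CME(-) libraries.

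In 1 test per gene of any difference among the 6 groups, edgeR called 5 of 11 mitochondrial members and 0 of 94 nuclear members, where 3.71% of all genes were called. The 5 were mt-Co2, mt-Cytb, mt-Nd1, mt-Nd4 and mt-Atp6, with adjusted p of 0.000335 to 0.00769. At an unadjusted p under 0.05, which 15.8% of all genes passed, there were 5 nuclear members, led by Sdhaf4, Sdhd and Atp5g1. DESeq2 called 7 mitochondrial and 2 nuclear members, without its share of all genes. Atp5g1 had 128 CPM in the first-run library and 190 to 222 CPM in the second-run libraries with Asbt-/- CME(+), against 144 to 149 CPM in DMSO. Its change was 0.44 (adjusted p = 0.16, edgeR), and that of Atp5g2, a second gene for the subunit, was -0.72 (adjusted p = 0.186).

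Genes for isoforms of one subunit were at very different levels in this tissue, by counts near their 3' ends. Cox6b1 had a median of 342 CPM over the 21 libraries, while Cox6b2, its testis isoform, had 2.41 CPM. Cox8a had 552 CPM and Cox8b, the heart and muscle form, 1.64 CPM with at least 1 library at 0. Cox7a2 had 484 CPM and Cox7a1 48.5 CPM. No test was made between genes.

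Many nuclear genes of oxidative phosphorylation are known to be driven by NRF1, by ETS factors such as GABP, and by YY1. In RefSeq promoters of GRCm38.p6 (250 bases before to 50 after the start), found for 77 of the 94 nuclear members, the NRF1 motif GCGCNTGCG occurred in 35.1%, against 7.12% of 27025 genes, on either strand. The ETS motif CCGGAAG occurred in 27.3% against 9.93%, and the YY1 motif AAGATGGCG in 10.4% against 1.64%; 59.7% held at least 1 of the 3, against 16.6%. Matches of the YY1 and NRF1 motifs can share the letters GCG. The promoters of Sdhaf4 and Sdhd are shown because these genes of complex II had the lowest nuclear p in the test of the 6 groups, with capitals for the motifs as they lie on the printed strand, NRF1 in both and ETS in Sdhd.
Sdhaf4 (chr1:24005591-24005890, - strand): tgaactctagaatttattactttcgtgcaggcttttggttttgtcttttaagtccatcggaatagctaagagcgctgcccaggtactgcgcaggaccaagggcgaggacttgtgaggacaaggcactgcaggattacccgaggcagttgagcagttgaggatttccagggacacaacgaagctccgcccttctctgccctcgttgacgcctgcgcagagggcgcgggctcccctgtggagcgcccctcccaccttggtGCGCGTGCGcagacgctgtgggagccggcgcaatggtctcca
Sdhd (chr9:50603800-50604099, - strand): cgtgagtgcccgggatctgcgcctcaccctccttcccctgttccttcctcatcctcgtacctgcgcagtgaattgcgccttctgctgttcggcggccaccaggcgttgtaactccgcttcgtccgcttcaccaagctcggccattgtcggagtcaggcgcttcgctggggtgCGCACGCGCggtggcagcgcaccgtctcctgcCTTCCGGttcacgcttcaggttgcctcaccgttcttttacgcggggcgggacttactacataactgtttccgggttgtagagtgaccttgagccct
The 2 genes had changes of opposite sign with Asbt-/- CME(+) against DMSO, -1.11 for Sdhaf4 and 0.69 (adjusted p = 0.143, edgeR) for Sdhd. A motif match is a description of letters, and no binding was measured.

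Levels of mitochondrial mRNAs were set against mitochondrial rRNA. Over the 16 used second-run libraries, log2 levels of mt-Nd5 and of the rRNA had a Pearson r of 0.93 (permutation p = 1e-05, the smallest that 100000 permutations can give; adjusted over 11 relations 5.5e-05) and a Spearman rho of 0.88 (permutation p = 4e-05, adjusted 0.00022). Without the 2 farthest libraries, tCDCA replicate 3 and Asbt-/- CME(+) replicate 2, r was 0.84, and within groups it was 0.96. mt-Co1 had an r of 0.89 (permutation p = 1e-05, adjusted 5.5e-05), a rho of 0.92 (permutation p = 1e-05, adjusted 0.00011), 0.92 without the same libraries and 0.96 within groups.

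For the 5 members called with Asbt-/- CME(+), the coefficients depended on 2 libraries; the difference between genes was not tested. mt-Atp6 had an r of 0.58 (permutation p = 0.0104, adjusted 0.0381), a rho of 0.84 (permutation p = 0.00011, adjusted 0.000403), 0.84 without the 2 farthest libraries and 0.80 within groups. mt-Nd1 had an r of 0.25 (permutation p = 0.358, adjusted 0.438) and a rho of 0.53 (permutation p = 0.037, adjusted 0.0678); within groups r was -0.06, and without the 2 farthest libraries it was 0.78. mt-Nd4 and mt-Cytb had an r of 0.39 and 0.36 (permutation p = 0.138 and 0.178, adjusted 0.253 and 0.28), a rho of 0.64 and 0.61 (permutation p = 0.00903 and 0.0134, adjusted 0.0248 and 0.0295), an r of 0.79 each without the 2 farthest libraries and 0.11 each within groups. mt-Co2 had an r of 0.12 (permutation p = 0.672, adjusted 0.672), a rho of 0.49 (permutation p = 0.0535, adjusted 0.0736), 0.75 without the same libraries and -0.40 within groups. In tCDCA replicate 3, which had 5.29% rRNA, mt-Nd5 was at 1126 CPM against 6282 and 7192 CPM in the other second-run tCDCA libraries, while mt-Nd1 was at 10010 CPM against 7587 and 9786 CPM. Both measures come from the same library and share its total and scaling factor.

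**Figure D5:**
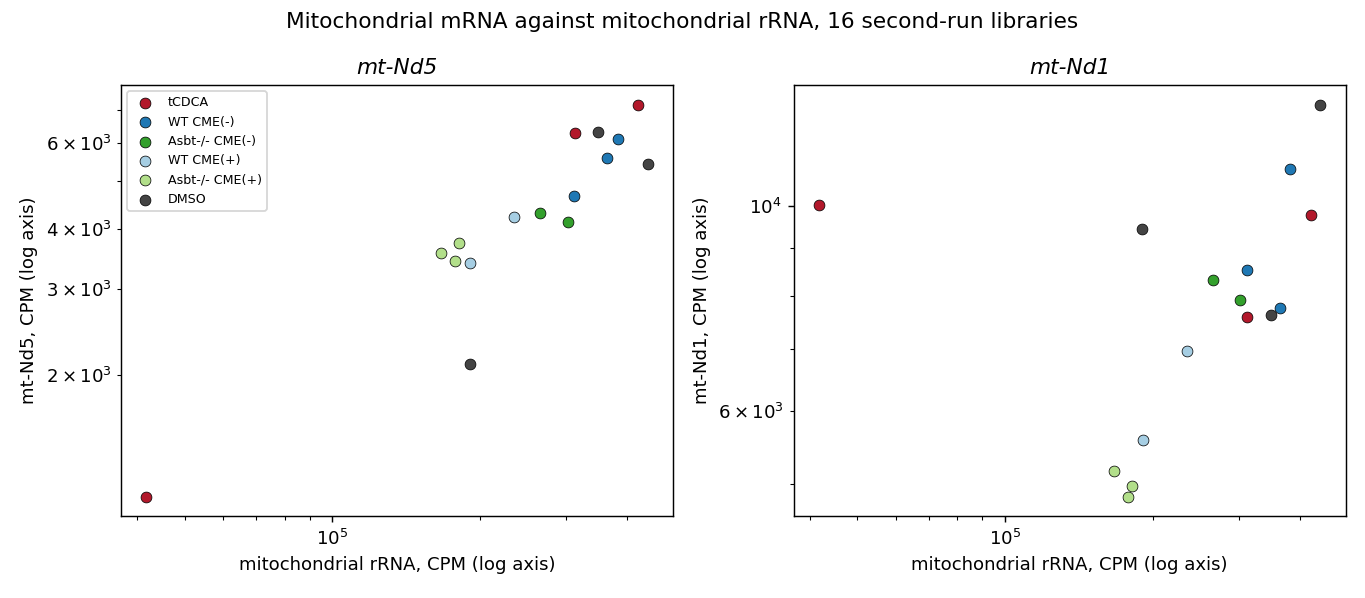
Levels of mt-Nd5 (left) and mt-Nd1 (right) against mitochondrial rRNA, in TMM-scaled CPM on log axes, in the 16 used second-run libraries, coloured by group. mt-Nd5 rises with rRNA over all libraries (r = 0.93), and for mt-Nd1 tCDCA replicate 3 and DMSO replicate 4 lie high at low rRNA (r = 0.25).

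Lists of neighbouring steps are read against the share of all genes called, 5.68% with tCDCA, 0.952% with Asbt-/- CME(-) and 2.31% with Asbt-/- CME(+). In each comparison with DMSO, edgeR called 0 of 35 tested assembly factors outside the rule. It also called 0 of 28 tested genes for mitochondrial transcription, RNA processing and DNA upkeep. For Asbt-/- CME(+), 1 of the 35 and 5 of the 28 passed an unadjusted p under 0.05, as did 1997 of the 13125 genes tested. Of 18 genes of the citrate cycle and pyruvate entry, 3 fell with tCDCA: Ogdh, a part of the oxoglutarate dehydrogenase complex (-0.80 ± 0.170, adjusted p = 0.00213, edgeR), Cs, citrate synthase (-0.58 ± 0.168, adjusted p = 0.0311), and Mdh2, mitochondrial malate dehydrogenase (-0.49 ± 0.151, adjusted p = 0.0467). Mdh2 also fell with Asbt-/- CME(-) (-0.68, adjusted p = 0.0324) and Asbt-/- CME(+) (-0.55, adjusted p = 0.0387), against the same DMSO libraries. Of 78 mitochondrial ribosome genes, 1, Mrps5, rose, by 0.71 with tCDCA (adjusted p = 0.0359) and 0.94 with Asbt-/- CME(+) (adjusted p = 0.0078).

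Among 25 genes for electron carriers and nucleotide exchange, Vdac1, the outer membrane channel, rose with Asbt-/- CME(+) (0.64, adjusted p = 0.0168, edgeR) and Coq10b, which binds coenzyme Q, fell (-0.79, adjusted p = 0.0187). Of 11 regulators 1, Hcfc1, a transcriptional coregulator, rose with Asbt-/- CME(+) (0.91, adjusted p = 0.0143, edgeR). The medians of these lists in this comparison were -0.04 for assembly factors, 0.13 for transcription and upkeep, -0.07 for the citrate cycle, 0.13 for the ribosome, -0.11 for carriers and 0.18 for regulators.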

How the data were processed

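Values are raw whole-number counts per gene in 1 table that the authors deposited. The build GRCm39 and the tools cutadapt, FastQC, Picard and HISAT2 come from the submitters' processing notes; how reads were counted, with which strand setting and annotation, is not given in the sources used here. Symbols came from GENCODE M21 (GRCm38), which named 51884 of 57126 identifiers (88.4% of counts). Reads shared with retrocopies, pseudogenes or nuclear copies of mitochondrial DNA could have been divided in counting, so such members are uncertain; Ndufb1-ps, left out by the rule, held 9590 counts.

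edgeR 4.0.16 in R 4.3.3 fitted 1 robust quasi-likelihood model (group and run terms, TMM scaling, filterByExpr) to 21 libraries and 13125 genes, with two-sided tests, Benjamini-Hochberg adjustment within each comparison and calls at an adjusted p under 0.05. The run is the prefix of a column name. Levels are CPM after TMM over 24 libraries. No 2 replicates agreed within sampling noise (chi-square per degree of freedom at least 5.68).

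Named genes were all mitochondrial members; per comparison, up to 12 called nuclear members or else the 3 with the smallest p; the 6 with the smallest p among the 6 groups; tissue isoforms; and up to 3 called genes per pathway list. The text left out some of these in secondary comparisons, and mt-Co3, Ndufv1 and Atp5e are described after their values were seen. Members and lists were chosen with earlier results of these data known. Alternatives were DESeq2 1.42.0, other scaling, filters, run handling, libraries and blocks. Their counts of called members are given without the share of all genes called under the same alternative. A higher count there can therefore reflect more calls among all genes. For replicates 2 to 4, the labels give extracts of the same genotype and number the same donor across forms, which pairs them. They name no donor for replicate 1. Deviations of the paired second-run libraries correlated at -0.01 to 0.06 (4 pairs). Counts were simulated for Asbt-/- CME(+) against DMSO (12412 genes), with the same spread for every gene and no run effect. Of genes raised and genes lowered by a log2 change of 1, 31.2% and 42.2% were called. For a log2 change of 2 the shares were 100% and 80.4%, and there were 10 false calls.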

Additional observations from a re-analysis of the deposited data

Results flagged for a closer look

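In groups of 4 libraries, a library was singled out where its gap to the nearest other library was above Dixon's 95% critical value as a share of the group's range; 13 of 117 groups of values met this, about 5.8 would by chance (1 in 20 groups), and 10 of the 13 were first-run libraries. With Asbt-/- CME(+), replicate 1 was highest for mt-Cytb (12940 CPM, others 7696 to 7750), mt-Nd1 (7086 CPM, others 4849 to 5168), mt-Nd4 (25480 CPM, others 7990 to 9146), Sdhd (63.2 CPM, others 33.8 to 35.3) and Uqcrc2, a core subunit of complex III (169 CPM, others 103 to 108). The same library was lowest for mt-Nd5 (1945 CPM, others 3436 to 3737) and mitochondrial rRNA (52136 CPM, others 166642 to 181850). With WT CME(-), replicate 1 was lowest for Cox6b2 (0.646 CPM, others 3.96 to 4.72) and for mitochondrial rRNA (64811 CPM, others 311028 to 382205), and highest for Uqcrc2 (192 CPM, others 84.3 to 94.5).

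Of the second-run libraries, 2 were also singled out. tCDCA replicate 4 was highest for Ndufa12, a complex I subunit (128 CPM, others 86.0 to 91.4), and lowest for mt-Nd1 (7587 CPM, others 9786 to 10010). WT CME(-) replicate 2 was highest for Ndufv1 (94 CPM, others 50 to 54.3).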

How the results depend on the processing

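With Asbt-/- CME(+) against DMSO, the 5 mitochondrial calls became 0 without scaling factors and 0 without the run term, 2 to 6 when single libraries were left out, and the 1 nuclear call became 0 without scaling factors, without the run term or with all 24 libraries, 2 without a count filter or by DESeq2, and 0 to 1 when single libraries were left out. Without scaling factors the mitochondrial median was -0.69 where the median of all genes was 0.22, and 93.7% of all calls were higher. The 3 mitochondrial calls for CME(-) against CME(+) became 0 without scaling factors or the run term, 5 without a count filter, 5 with the replicate block of extract donor in the extract groups alone, 7 with the compared groups alone, 6 by DESeq2, 6 without tCDCA replicate 3 and DMSO replicate 4 together (chosen after seeing the data), and 0 to 6 when single libraries were left out. For Asbt-/- CME(-) against Asbt-/- CME(+), 0 mitochondrial calls became 3 without a count filter, 1 with the donor block, 4 with the compared groups alone, 4 by DESeq2 and 1 without the same 2 libraries. For WT CME(+) against DMSO, 0 mitochondrial calls became 3, and 0 nuclear calls 1, without a count filter (Sdhd) and by DESeq2 (Atp5g1). For Asbt-/- CME(-) against DMSO, 0 mitochondrial calls became 1 (mt-Co3) with the compared groups alone, and nuclear calls were 0 to 1 when libraries were left out. With tCDCA against DMSO, 0 nuclear calls became 1 without a count filter and 0 to 3 when libraries were left out. Over the 6 groups, the 5 mitochondrial calls became 0 without scaling factors or the run term, and the 0 nuclear calls became 2 without a count filter or by DESeq2, with ranges of 5 to 6 and 0 to 1 when libraries were left out. The replicate block by number changed no count of calls by over 1.5 times. mt-Nd4 in WT CME(+) against DMSO was at 0.12 without the run term, the one reversed direction among the values named; first-run libraries, of which DMSO has none in use, were high for this gene. With mitochondrial genes left out of the library totals, the log2 ratio of nuclear sums, Asbt-/- CME(-) over Asbt-/- CME(+), was 0.07 in place of 0.12. The second-run nuclear sums of the WT forms then overlapped. Other causes were not tested. With 3 or 4 libraries a group, 2-fold changes were often missed in the simulated counts. These gave every gene the same spread and so do not describe single members. With Asbt-/- CME(+) against DMSO, 5 mitochondrial members were called at 1.89- to 1.95-fold, and the median SE of the nuclear members was 0.18. Genes under about 10 CPM carry few counts.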

Other observations

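The 2 runs, as read from the column names, differed by gene within the mitochondrial set. Over the 5 groups with used libraries in both runs, the second run was lower than the first by a median log2 difference of -1.47 for mt-Nd4, -0.52 for mt-Cytb and -0.37 for mt-Nd1. It was higher by 1.49 for mt-Co1, 1.67 for mt-Nd6, 1.27 for mt-Nd3 and 0.75 for mt-Nd5, and by 1.89 for mitochondrial rRNA. mt-Atp6 was at -0.04. Run and the date or batch of the cultures cannot be told apart from the labels, and no test was made.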
